A study of Mus musculus with 6 samples.

Results

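Purinergic and adenosine signalling was described here through 9 genes (P2rx4, P2rx7, P2ry2, P2ry6, Entpd1, Ada, Adora2a, Adora2b and Adora3) in macrophages sorted from the wounds of young and aged mice. They were chosen by gene symbol. All 9 were found among the 15168 genes of the count table, and all 9 passed the filter on low counts that left 11878 genes for testing. The samples were 3 from young mice, labelled as 12 weeks old, and 3 from aged mice, labelled as 24 months old. All of the mice were wild-type C57BL6/J females with full-thickness wounds of 10 mm on the back, made under isoflurane with buprenorphine against pain in both ages. Cells were digested out of the wounds on Day 3 and sorted as F4/80+ CD64+, within CD45+ CD11b+ cells according to the methods of the study. In each age the samples are labelled as set A, B and C. The labels do not say how many mice gave a sample or whether the samples came from separate mice, so the p-values measure the spread between these samples, which may be technical. The mice were housed in Singapore or in Manchester, and the labels do not say which for any sample, so whether housing differed with age is not known here.

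ATP and other nucleotides leave damaged and dying cells and act on macrophages through P2X receptors, which are ion channels opened by ATP, and through P2Y receptors, which couple to G proteins. On the cell surface CD39, encoded by Entpd1, takes phosphates off ATP and ADP to give AMP, and CD73, encoded by Nt5e, turns AMP into adenosine. Adenosine acts on receptors of its own, of which those encoded by Adora2a and Adora2b raise cAMP and that encoded by Adora3 couples to inhibitory G proteins, until adenosine deaminase, encoded by Ada, turns it into inosine or the cell takes it up. In wounds and other inflamed tissue this sequence is known for an early ATP signal that promotes inflammation and a later adenosine signal that dampens it.

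Of the 9 genes, P2ry2, Entpd1, Adora2b and Adora3 rose in aged Day 3 wound macrophages and 0 fell, at an adjusted p-value under 0.05 (quasi-likelihood test of edgeR, with p-values adjusted over the 11878 tested genes). Over all tested genes 17.7% were called at this threshold, 9.73% as higher and 7.97% as lower in aged samples. The median log2 fold change was 0.65 over the 9 genes and -0.02 over all tested genes. At an unadjusted p under 0.05, 5 of the 9 were higher and 1 was lower, against 18.1% and 16.5% of all tested genes. With a change of more than 2-fold also required, 1 of the 9 genes was called (Adora3), against 8.79% of all tested genes. The samples of the 2 ages did not overlap for 7 of the 9 genes, 5 with aged above young and 2 with aged below young, and they did not overlap for 38.2% of all tested genes. Over all genes, 2103 were called with every sample, 218 without young C, 765 without young B and 545 without aged C. The number was 1385 without aged A, 2702 without young A and 1502 without aged B. The count of called genes among the 9 also depended on single samples. It was 0 without young C, 1 (Entpd1) without young B or without aged C, and 3 (Entpd1, Adora2b and Adora3) without aged A. Without young A or without aged B it was 4, but with other genes, since Adora2b was lost and Ada was called lower beside P2ry2, Entpd1 and Adora3.

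The 4 genes that rose are shown by the sequence around their start site, since they moved in the same direction. The windows come from RefSeq for GRCm38.p6, hold 250 bases before and 50 bases after the start site, and read 5′ to 3′ on the strand of the gene. A window was given for 7 of the 9 genes, and none was given for Adora2a or P2ry6. Capitals mark matches to the motifs searched on both strands: AP-1 (TGANTCA), the cAMP response element (TGACGTCA), NF-kB (GGG, any 2 bases and TTTCC) and ACGTG, a form of the core of the hypoxia response element. The form GCGTG was not searched. The window of Adora2b is chr11:62248734-62249033 on the plus strand, that of Entpd1 chr19:40612116-40612415 on the plus strand, that of P2ry2 chr7:101012004-101012303 on the minus strand and that of Adora3 chr3:105904171-105904470 on the plus strand.
Adora2b: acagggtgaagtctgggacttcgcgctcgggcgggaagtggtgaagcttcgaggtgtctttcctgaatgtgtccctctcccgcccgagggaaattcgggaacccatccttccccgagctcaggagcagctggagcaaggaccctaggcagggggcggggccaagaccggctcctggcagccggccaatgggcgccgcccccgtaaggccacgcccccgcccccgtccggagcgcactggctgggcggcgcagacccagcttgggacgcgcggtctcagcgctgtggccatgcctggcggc
Entpd1: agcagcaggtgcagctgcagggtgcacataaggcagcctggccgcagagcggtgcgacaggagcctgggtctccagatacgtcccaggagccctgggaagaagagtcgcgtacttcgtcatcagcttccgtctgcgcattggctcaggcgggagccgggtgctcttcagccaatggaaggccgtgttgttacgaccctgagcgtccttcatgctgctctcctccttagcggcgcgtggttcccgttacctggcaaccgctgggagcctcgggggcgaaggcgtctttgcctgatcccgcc
P2ry2: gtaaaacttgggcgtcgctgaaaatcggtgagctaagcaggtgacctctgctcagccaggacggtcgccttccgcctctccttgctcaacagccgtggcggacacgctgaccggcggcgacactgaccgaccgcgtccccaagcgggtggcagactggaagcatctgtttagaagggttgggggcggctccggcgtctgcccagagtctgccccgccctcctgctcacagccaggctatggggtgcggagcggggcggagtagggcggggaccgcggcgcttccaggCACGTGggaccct
Adora3: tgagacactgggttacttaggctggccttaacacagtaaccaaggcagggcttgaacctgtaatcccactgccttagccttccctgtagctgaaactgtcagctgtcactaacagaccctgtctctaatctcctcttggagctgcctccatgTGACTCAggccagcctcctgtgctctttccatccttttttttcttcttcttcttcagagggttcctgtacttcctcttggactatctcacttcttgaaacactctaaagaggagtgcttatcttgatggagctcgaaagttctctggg
The Adora3 window held 1 AP-1 match, beginning at base 153 of the window, a motif found in 7.81% of all 32851 windows, and 1 window of P2rx7, which was not called, held it as well. In the P2ry2 window the letters CACGTG hold ACGTG once on each strand, from base 288 of the window, and ACGTG was found in 19.6% of all windows. A second RefSeq window for P2ry2, from a start site further along the gene, holds the same letters. None of the 4 motifs, in the letters searched, was in the window shown for Entpd1 or in that for Adora2b. The cAMP response element and NF-kB motifs, found in 1.79% and 1.63% of all windows, were in none of the windows of the 7 genes. The windows differed in base composition. Those of Adora2b, P2ry2 and Entpd1 held 70.0%, 67.3% and 64.0% G and C with 27, 28 and 23 CG dinucleotides, and that of Adora3 held 48.3% with 1 CG dinucleotide, where the median of all windows was 52.7% and 7. The other RefSeq window for Entpd1, from a start site further along the gene, held 48.7% G and C with 10 CG dinucleotides. A match describes the letters only.

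Library depth was similar across the samples, with between 15270103 and 17927483 expected counts (reads assigned to genes, estimated where a read fits several). Values are given as CPM, the count of a gene scaled to the size of its library after TMM correction, in which 1 count was worth 0.0553 to 0.0701 CPM. The 8 macrophage markers were all detected, and their summed level was 27966 to 43048 CPM in young and 20174 to 25536 CPM in aged samples, of which Lyz2 alone gave 24157 to 38843 and 16239.9 to 21389 CPM. Of the 8, 1 (Itgam) was higher and 1 (Adgre1) was lower in aged samples, against 9.73% and 7.97% of all tested genes. Of the sort markers, Fcgr1, which encodes CD64, was at 422 to 467 CPM in young and 486 to 514 CPM in aged samples. Adgre1, which encodes F4/80, was at 289.6 to 357 CPM in young and 172 to 241 CPM in aged samples. Itgam, the gene of CD11b, was at 334 to 402 CPM in young and 702 to 822 CPM in aged samples, and Ptprc, the gene of CD45, at 195 to 229 CPM and 190.2 to 308 CPM. With bulk RNA, fewer cells of a type that express a gene and less RNA of that gene per cell cannot be told apart. When libraries were scaled by their totals alone, without TMM, the median log2 fold change of all genes moved from -0.02 to -0.20, and 27.4% in place of 55.0% of the called genes were higher in aged samples.

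Levels were compared between genes as CPM per kb of the longest annotated transcript. In young samples Adora2b, at 202 ± 20.1 CPM per kb (SD, n = 3), was the most abundant of the 9 genes, followed by P2rx4 at 55.9 ± 3.36, P2ry6 at 38.7 ± 8.57 and Entpd1 at 32.8 ± 5.44. P2ry2 was at 9.23 ± 2.7 CPM per kb, Ada at 4.91 ± 1.31 and P2rx7 at 4.56 ± 0.146. The other adenosine receptor genes were at the low end, with Adora2a at 1.23 ± 0.427 and Adora3 at 0.632 ± 0.322 CPM per kb. Neighbours in this order that overlapped between samples were P2ry6 and Entpd1, Ada and P2rx7, and Adora2a and Adora3. In aged samples Adora2b was again first, at 316 ± 65.0 CPM per kb. Entpd1 moved from rank 4 to rank 2 at 62.3 ± 4.83, P2ry6 stayed at rank 3 at 51.3 ± 1.76, and P2rx4 moved from rank 2 to rank 4 at 44.2 ± 7.19. P2ry2 was at 16.0 ± 3.65 CPM per kb, P2rx7 at 4.92 ± 0.767, Adora2a at 2.68 ± 1.84, Ada at 2.60 ± 0.864 and Adora3 at 2.03 ± 0.0125. Samples of P2ry6 and P2rx4 overlapped in the aged group, as did those of P2rx7 and Adora2a, of Adora2a and Ada, and of Ada and Adora3. With the mean in place of the longest transcript length, Entpd1 stood above P2ry6 in young samples, and Ada below P2rx7 in young and below Adora3 in aged samples. P2rx4 then stood above P2ry6 in aged samples too, at rank 3, and P2ry6 was at rank 4 in both ages.

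**Figure D1:**
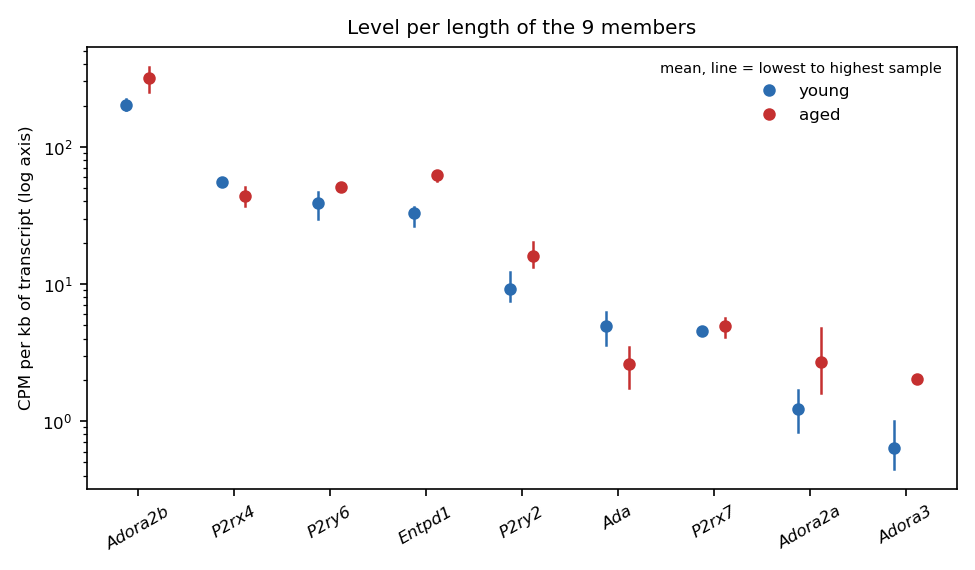
Level of each gene as CPM per kb of the longest transcript (log axis) in young and aged Day 3 wound macrophages, with the mean of 3 samples as the point and the lowest to highest sample as the line. Adora2b leads in both ages at 202 and 316 CPM per kb, and Adora3 is lowest at 0.632 and 2.03 CPM per kb.

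Neither P2X receptor gene differed between the ages beyond the threshold. P2rx4 encodes an ATP-gated channel found in lysosomes and at the surface of macrophages, and it spans chr5:122707544-122729738 on the plus strand (mm10). It was measured at 140.5, 155 and 157 CPM in young A, B and C and at 138, 99.6 and 119.9 CPM in aged A, B and C. Each aged sample was below each young sample, with aged A close to young A. The means were 151 ± 9.09 and 119 ± 19.4 CPM (SD, n = 3), and the log2 fold change of -0.34 (standard error, SE, 0.17, 95% interval -0.71 to 0.04) did not pass the edgeR test (adjusted p = 0.184, and 0.117 to 0.470 when each sample was left out in turn).

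P2rx7 encodes the ATP-gated channel that opens at high ATP and is known for starting the NLRP3 inflammasome, and it lies 16.1 kb before P2rx4, at chr5:122643911-122691432 on the plus strand. Its levels were 22.4, 23.3 and 21.9 CPM in young A, B and C and 20.5, 28.0 and 24.3 CPM in aged A, B and C. The 2 ages overlapped, with the lowest and the highest value both in aged samples. The log2 fold change was 0.11 with TMM scaling and -0.07 with library totals alone, so its sign depended on the scaling, and the 95% interval with TMM was -0.28 to 0.50 (edgeR adjusted p = 0.695). The log2 ratio of P2rx4 to P2rx7 within a sample, which library scaling cannot change, was 2.74 ± 0.10 in young and 2.30 ± 0.46 in aged samples (difference -0.45, two-sided exact permutation test, p = 0.300). With 3 samples against 3, the smallest p this test can give is 0.1.

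P2Y receptor genes were higher in each aged sample than in each young sample for both P2ry2 and P2ry6, and P2ry2 passed the test. P2ry2 encodes a receptor for ATP and UTP that phagocytes are known to use in sensing nucleotides from dying cells, and it spans chr7:100996568-101012866 on the minus strand. It was measured at 37.2, 22.8 and 23.4 CPM in young A, B and C and at 60.7, 39.7 and 44.5 CPM in aged A, B and C. Set A was the highest in both ages, and the aged samples lay above the young ones by a narrow margin, with aged B at 39.7 and young A at 37.2 CPM. P2ry2 rose 1.74-fold from 27.8 ± 8.13 to 48.3 ± 11.0 CPM (SD, n = 3), a log2 fold change of 0.80 (SE 0.24, 95% interval 0.27 to 1.32, edgeR adjusted p = 0.0435). This call was lost without young B (adjusted p = 0.142), without young C (0.170), without aged A (0.119) and without aged C (0.0968), as well as with library totals alone (0.115) and without the filter on low counts (0.0513), while over the fits that left out a sample the log2 fold change stayed between 0.60 and 1.07.

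P2ry6, which encodes a receptor for UDP known for its part in phagocytosis by microglia, spans chr7:100937630-100974649 on the minus strand, 21.9 kb from P2ry2. Its levels were 77.6, 90.9 and 57.7 CPM in young A, B and C and 104, 99.4 and 96.7 CPM in aged A, B and C. The young samples were spread over a wider range than the aged ones, which all lay close to 99.9 ± 3.43 CPM, against 75.4 ± 16.7 CPM in young samples (SD, n = 3). The log2 fold change was 0.41 (SE 0.18, 95% interval -0.00 to 0.81, edgeR adjusted p = 0.148). limma-voom with sample weights gave 0.56 with an adjusted p of 0.0300, and DESeq2, without such weights, gave 0.42 with an adjusted p of 0.150.

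**Figure D2:**
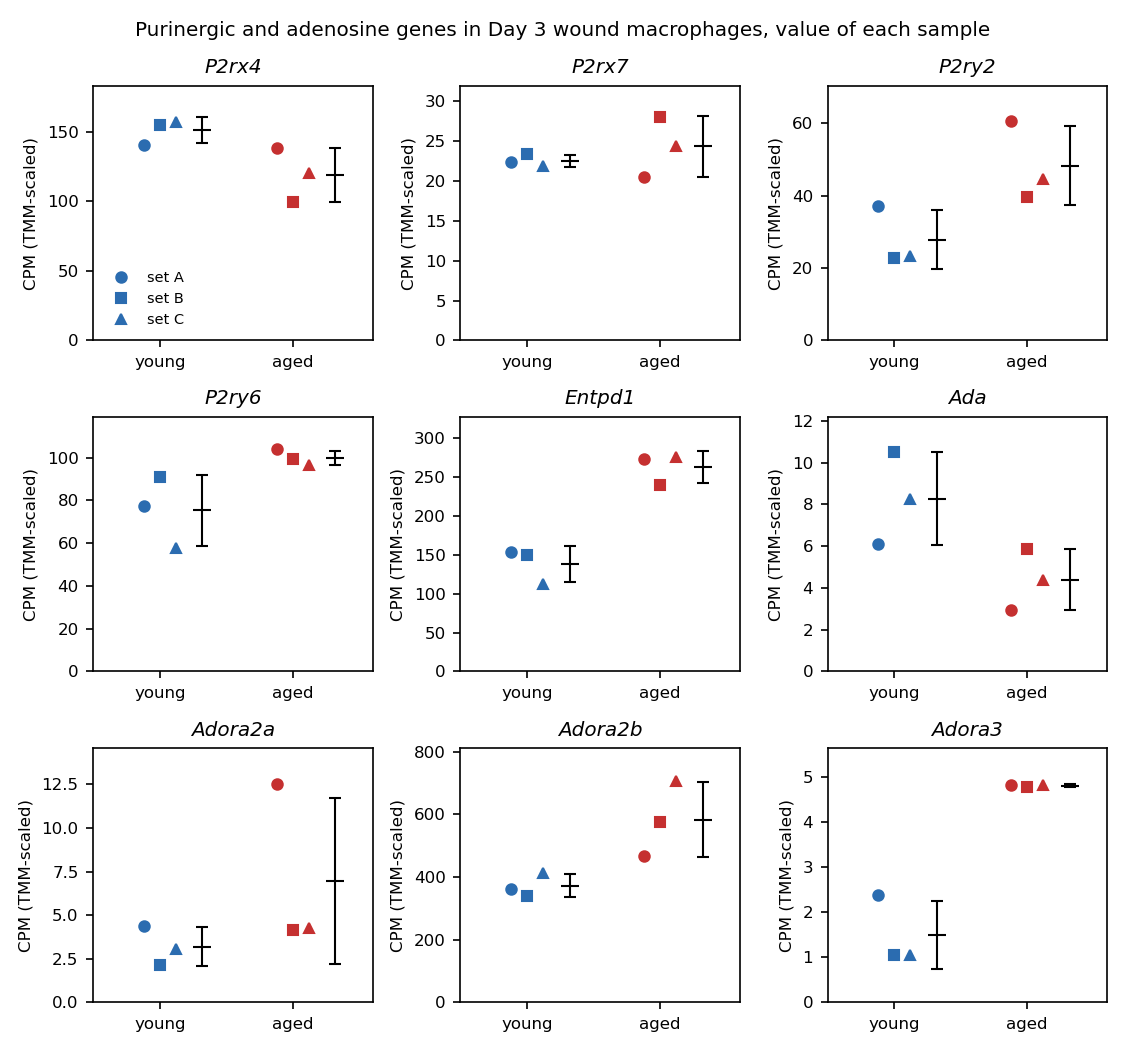
CPM (TMM-scaled) of each of the 9 genes in the 3 young and 3 aged samples, with the set letter as the symbol and the mean ± SD of each age as the black bar. The samples of the ages overlap for P2rx7 and Adora2a, and the aged samples of Adora3 lie together between 4.78 and 4.83 CPM.

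Entpd1, which encodes CD39, the enzyme that clears ATP and ADP at the cell surface, had the lowest adjusted p of the 9 genes. It spans chr19:40612366-40741602 on the plus strand. It was measured at 154, 149 and 112 CPM in young A, B and C and at 273, 239 and 276 CPM in aged A, B and C. The lowest aged sample was well above the highest young one. Entpd1 rose 1.90-fold from 138 ± 23.0 to 263 ± 20.4 CPM (SD, n = 3), a log2 fold change of 0.92 (SE 0.18, 95% interval 0.53 to 1.32, edgeR adjusted p = 0.0111). It was called in 5 of the 6 fits that each left out 1 sample, with log2 fold changes of 0.79 to 1.01, and missed the threshold without young C (adjusted p = 0.0681). The processed pseudogene Gm8783 lies within its span on the same strand, with 309 to 573 counts in the samples against 1698 to 4475 for Entpd1. Reads from that stretch could be counted for either gene, which was not tested.

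Ada, which encodes adenosine deaminase, was the only one of the 9 genes with a negative log2 fold change and an unadjusted p under 0.05. It spans chr2:163726584-163750239 on the minus strand. Its levels were 6.08, 10.5 and 8.26 CPM in young A, B and C and 2.94, 5.86 and 4.39 CPM in aged A, B and C, from 42 to 179 counts a sample. All aged samples were below all young samples, with aged B just under young A, and set A was the lowest in both ages. The means were 8.28 ± 2.21 and 4.40 ± 1.46 CPM (SD, n = 3) and the log2 fold change was -0.91 (SE 0.31, 95% interval -1.61 to -0.21). The edgeR test did not pass the threshold (adjusted p = 0.0696). It passed without young A (adjusted p = 0.0366) and without aged B (0.0494), and also in limma-voom (0.0281) and with libraries scaled by their totals alone (0.0461).

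The log2 ratio of Entpd1 to Ada within a sample put the gene that starts the path to adenosine beside the one that ends it. It was 4.66, 3.83 and 3.76 in young A, B and C and 6.53, 5.35 and 5.98 in aged A, B and C. Since neither gene overlapped between the ages, with Entpd1 above and Ada below in aged samples, the ratio could not overlap either. The outcome of a test was thus fixed in advance, and no p-value is given. The mean ratio was 4.09 ± 0.50 in young and 5.95 ± 0.59 in aged samples, a difference of 1.87 on the log2 scale.

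Adenosine receptor genes held the most abundant of the 9 genes and, per kb of the longest transcript, the least abundant. Of the 3 measured, 2 rose, beside 9.73% of all tested genes. Adora2b encodes the receptor of low affinity that is known to respond when adenosine is abundant, as in injured or hypoxic tissue, and it spans chr11:62248984-62266453 on the plus strand. It was measured at 362, 341 and 413 CPM in young A, B and C and at 466, 576 and 706 CPM in aged A, B and C. Each aged sample was above each young sample, and the aged samples were spread more widely. Adora2b rose 1.57-fold from 372 ± 37.1 to 583 ± 119.9 CPM (SD, n = 3), a log2 fold change of 0.65 (SE 0.19, 95% interval 0.22 to 1.07, edgeR adjusted p = 0.0430). The call held in 1 of the 6 fits that each left out 1 sample, that without aged A (adjusted p = 0.0310). It was lost without young A (0.0639), young B (0.127), young C (0.106), aged B (0.0670) and aged C (0.174), with log2 fold changes between 0.49 and 0.79, and also with library totals alone (adjusted p = 0.0900) and without the filter on low counts (0.0518).

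Adora3, whose receptor is well known from mast cells and is also found on macrophages and neutrophils, showed the largest fold change of the 9 genes at a low level. Its counts were 43, 18 and 16 in young A, B and C and 69, 75 and 78 in aged A, B and C. These correspond to 2.38, 1.06 and 1.06 CPM in young and 4.83, 4.78 and 4.82 CPM in aged samples. The aged samples were nearly equal, and young A stood above the other young samples but below every aged one. Adora3 rose 3.18-fold from 1.5 ± 0.763 to 4.81 ± 0.0295 CPM (SD, n = 3), a log2 fold change of 1.67 (SE 0.38, 95% interval 0.83 to 2.51, edgeR adjusted p = 0.0186). The log2 fold change was 1.47 to 2.18 when each sample was left out in turn, and the adjusted p was 0.0616 without young B, 0.0896 without young C and 0.0612 without aged C.

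The counted model of Adora3 spans chr3:105870858-105908926 on the plus strand and begins 33563 bases before the RefSeq start site used for its window. It overlaps Tmigd3 on the same strand, which has no row of its own in the count table, so the counts may hold reads of both genes. All 9 mast cell markers were in the table, and their summed level reached at most 174 CPM in young samples (young A) and lay between 119 and 405 CPM in aged samples, with Hdc contributing most. Of the 7 tested, 1 (Hdc) was higher and 0 lower in aged samples, and their median log2 fold change was -1.05. The mast cell protease genes Cpa3, Cma1 and Mcpt4 had 0 counts in aged B and aged C, as did Fcer1a and Ms4a2. In these samples Hdc was at 118 and 236 CPM, against 75.1 to 98.6 CPM in young samples. The counts there were 12 and 11 for Kit, 4 and 1 for Tpsb2 and 0 and 3 for Tpsab1. In aged A, Cpa3 was at 17.7 CPM and Cma1 at 13.5 CPM. In young A, B and C, Cpa3 was at 23.5, 15.1 and 7.33 CPM and Cma1 at 28.2, 13.4 and 7.79 CPM. Of the neutrophil markers 11 of 12 were in the table, and their summed level was 717 to 1216 CPM in young and 926 to 1581 CPM in aged samples. Of these 11, 4 were higher and 0 lower in aged samples, beside 9.73% and 7.97% of all tested genes. The 4 were Cd177 (3.07-fold), Cxcr2 (2.19-fold), Lcn2 (1.99-fold) and Retnlg (1.80-fold), while Ly6g itself was at 6.14 to 10.9 CPM in young and 6.18 to 9.60 CPM in aged samples. The sort was set to leave out mast cells, but it did not exclude Ly6G+ cells, so neutrophils could remain. The part of both in the values of Adora3, P2ry2 and the other genes was not tested.

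Adora2a encodes the receptor of high affinity that is known for restraining inflammatory cytokines in macrophages, and it spans chr10:75316877-75334784 on the plus strand. It was measured at 4.37, 2.17 and 3.04 CPM in young A, B and C and at 12.5, 4.14 and 4.26 CPM in aged A, B and C, from 37 to 178 counts a sample. The groups overlapped, since aged B and aged C were below young A, and aged A stood far above the rest. The means were 3.19 ± 1.11 and 6.96 ± 4.77 CPM (SD, n = 3) and the log2 fold change of 1.11 (SE 0.46, 95% interval 0.10 to 2.13) did not pass the edgeR test (adjusted p = 0.112). Without aged A the log2 fold change was 0.40 (adjusted p = 0.492). Adora2b stayed far above Adora2a in every sample, with a log2 ratio of Adora2a to Adora2b in CPM of -6.92 ± 0.48 in young and -6.57 ± 1.17 in aged samples (difference 0.35, two-sided exact permutation test, p = 0.9).

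**Figure D3:**
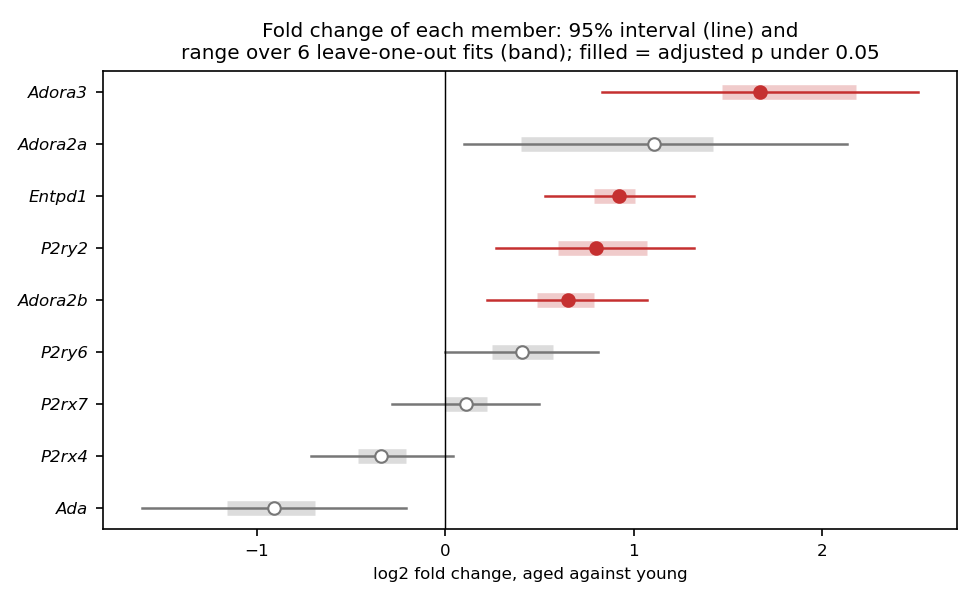
Log2 fold change of aged against young samples for each of the 9 genes (points), with the 95% interval (thin line) and the range over the 6 fits that each left out 1 sample (band). Filled points mark Adora3, Entpd1, P2ry2 and Adora2b, with an adjusted p-value under 0.05, and the band of Adora2a reaches down to 0.40.

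The other genes of the pathway were taken from lists of receptors, enzymes, transporters and downstream genes, in which 58 genes beside the 9 were named. Of these, 46 were in the table and 42 were tested, and 7 rose and 3 fell at an adjusted p-value under 0.05, beside 9.73% and 7.97% of all tested genes. Their median log2 fold change was -0.09, against -0.02 for all tested genes. Among P2X receptor genes other than P2rx4 and P2rx7, 2 were in the table and 0 had enough counts for a test. Of the 4 other P2Y genes tested, 1 rose and 1 fell. P2ry1, which encodes a receptor for ADP, was at 3.93, 4.58 and 7.93 CPM in young A, B and C and at 7.15, 15.6 and 17.8 CPM in aged A, B and C. It rose with a log2 fold change of 1.31 (SE 0.37, edgeR adjusted p = 0.0371), although the groups overlapped at aged A. The call for P2ry1 was lost without any one of young A, B or C, aged B or aged C (adjusted p up to 0.135) and with library totals alone (0.0513).

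P2ry12, which encodes the ADP receptor known from platelets and microglia, was at 21.7, 57.8 and 27.1 CPM in young A, B and C and at 13.2, 17.6 and 17.4 CPM in aged A, B and C. Young B stood far above the other samples. P2ry12 fell by 1.15 on the log2 scale (SE 0.33, edgeR adjusted p = 0.0386). Without young B the log2 fold change was -0.60 (adjusted p = 0.114), and the call was also lost without young C, aged A, aged B or aged C.

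Among the 3 ectonucleotidase genes tested beside Entpd1, 1 rose and 0 fell, against 9.73% and 7.97% of all tested genes. Nt5e, which encodes CD73, the enzyme that follows CD39 and makes adenosine, was at 68.3, 60.4 and 48.4 CPM in young A, B and C and at 81.0, 94.7 and 112 CPM in aged A, B and C. All aged samples were above all young samples. Nt5e rose from 59.1 ± 10.0 to 96.0 ± 15.7 CPM (SD, n = 3), a log2 fold change of 0.70 (SE 0.19, edgeR adjusted p = 0.0316). The adjusted p was 0.0841 without young B, 0.138 without young C, 0.0560 without aged B and 0.126 without aged C, and 0.102 with libraries scaled by their totals alone. CD39 and CD73 are also found on endothelial cells and T cells, and CD73 on fibroblasts, all of which the sort for CD45+ CD11b+ F4/80+ CD64+ cells was set to leave out. All 7 endothelial markers were in the table, with a summed level of 12.0 to 12.7 CPM in young and 25.9 to 31.5 CPM in aged samples. Of the 3 tested, 1 (Pecam1) was higher in aged samples, Kdr and Vwf were at 0.631 to 2.97 and 0.679 to 2.10 CPM over all samples, and Cdh5, Tek and Cldn5 were under 1 CPM in every sample and each at 0 in some. T cell markers, of which 9 of 10 were in the table, summed to 3.57 to 5.40 CPM in young and 2.59 to 4.41 CPM in aged samples, and of the 2 tested 1 (Cd4) was lower. B cell markers, 3 of 5 in the table, summed to 4.62 to 12.9 CPM in young and 2.61 to 4.08 CPM in aged samples, and the 1 tested (Cd79b) was lower. All 7 fibroblast markers were in the table, with sums of 23.6 to 41.1 CPM in young and 13.2 to 119.9 CPM in aged samples, the highest in aged B. Keratinocyte markers, 7 of 8 in the table, summed to 0.719 to 0.880 CPM in young samples and to 2.03, 127 and 1.73 CPM in aged A, B and C, and the 1 tested (Krt14) was higher. Without aged B, the log2 fold change was 0.72 for Nt5e. The part of these cell types in the values of Entpd1 and Nt5e was not tested.

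Beside Ada, 9 genes were tested on the list for turnover of adenosine and related purines, which holds Hprt, Xdh and the surface protein gene Dpp4 too. Of those tested, 0 rose and 1 fell, against 9.73% and 7.97% of all tested genes. Hprt, which salvages hypoxanthine and guanine for new nucleotides, was at 247, 306 and 269.8 CPM in young A, B and C and at 166, 176 and 158 CPM in aged A, B and C, with no overlap. It fell by 0.72 on the log2 scale (SE 0.16, edgeR adjusted p = 0.0172), and its adjusted p was 0.0590 without young B, 0.0777 without young C and 0.0819 without aged C. Of the 4 nucleoside transporter genes tested, 0 rose and 1 fell, against the same shares of all tested genes. Slc29a1, which encodes the equilibrative transporter that carries adenosine across the cell membrane, was at 50.2, 48.2 and 52.0 CPM in young A, B and C and at 28.2, 32.9 and 26.8 CPM in aged A, B and C. The samples of each age lay close together and the ages were well apart. Slc29a1 fell by 0.78 on the log2 scale (SE 0.16, edgeR adjusted p = 0.0137), with an adjusted p of 0.0755 without young C and 0.0653 without aged C. Slc28a2, the transporter gene with the highest mean CPM, had a log2 fold change of -0.28 (edgeR adjusted p = 0.236). Of the 4 genes for ATP release, 0 passed the test, and the one with the highest mean CPM, Gja1, had a log2 fold change of 0.41 (edgeR adjusted p = 0.218, and 0.0386 without young A).

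Downstream of the adenosine receptors, 3 of 11 tested genes of the cAMP response rose and 0 fell, beside 9.73% and 7.97% of all tested genes, and the median log2 fold change of the 11 was 0.25. Pde4b, which encodes a phosphodiesterase that breaks down cAMP, was at 199, 195 and 173 CPM in young A, B and C and at 377, 348 and 459.9 CPM in aged A, B and C. It rose with a log2 fold change of 1.06 (SE 0.17, edgeR adjusted p = 0.00627, and 0.0523 without young C). Its relative Pde4d rose at a lower level, from 4.86 ± 0.653 to 8.77 ± 0.305 CPM (SD, n = 3), with a log2 fold change of 0.85 (SE 0.23, edgeR adjusted p = 0.0316). Crem, which encodes a transcription factor that responds to cAMP, was at 422, 356 and 387 CPM in young A, B and C and at 544, 632 and 876 CPM in aged A, B and C, a log2 fold change of 0.82 (SE 0.20, edgeR adjusted p = 0.0250). In none of the 3 genes did the ages overlap. The call for Pde4d was lost without young B, young C, aged A, aged B or aged C (adjusted p up to 0.103) and with library totals alone (0.0709), and that for Crem without young B, young C or aged C (up to 0.106).

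Of the 8 genes tested that act with or after P2RX7 in the inflammasome, 2 rose and 0 fell, beside the same 9.73% and 7.97% of all tested genes, and the median log2 fold change was -0.19. Nlrp3, which encodes the sensor of this inflammasome, was at 16.5, 17.0 and 16.9 CPM in young A, B and C and at 50.6, 41.6 and 49.9 CPM in aged A, B and C. The young samples were nearly equal and every aged sample was far above them. Nlrp3 rose 2.81-fold, a log2 fold change of 1.49 (SE 0.16, edgeR adjusted p = 0.00136), and it was called in 6 of the 6 fits that each left out 1 sample. Il1b, the gene of the cytokine that the inflammasome releases, rose with a log2 fold change of 1.08 (SE 0.29, edgeR adjusted p = 0.0328), a call that was lost without young A, B or C, aged A or aged C (adjusted p up to 0.129). P2rx7 itself stood at 24.3 ± 3.78 CPM in aged and 22.5 ± 0.721 CPM in young samples (SD, n = 3).

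**Figure D4:**
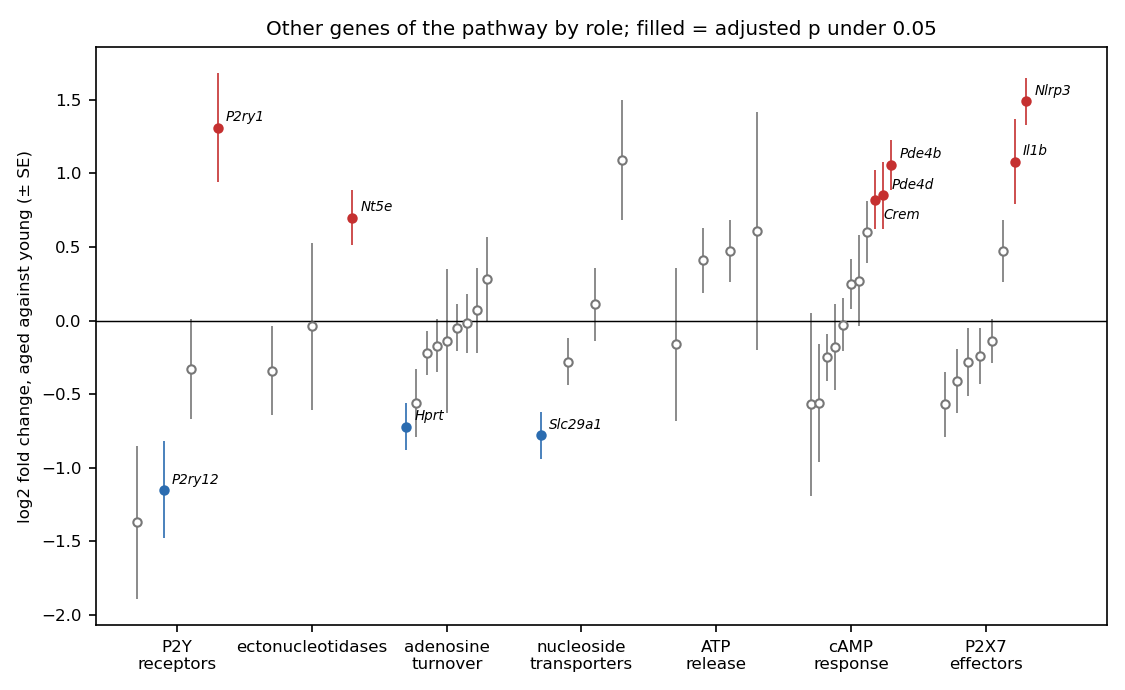
Log2 fold change (± standard error) of the tested genes of the pathway other than the 9, grouped by role, for aged against young samples. Filled points mark the genes with an adjusted p-value under 0.05, which are P2ry1, Nt5e, Pde4b, Pde4d, Crem, Nlrp3 and Il1b above 0 and P2ry12, Hprt and Slc29a1 below 0.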

How the data were processed

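Bulk RNA sequencing of sorted Day 3 wound macrophages was analysed in 3 young and 3 aged samples. cDNA was made with a SMART-Seq v4 kit, which does not mark strand, and whether the authors' counting used strand is not given in the sources used here. Per the submitters' processing notes, reads were processed with Partek, STAR 2.7.3a and mm10, and the authors deposited expected counts per gene (estimated counts, 30.3% to 33.9% of the genes of a sample not whole), without normalisation. The table lists 15168 genes, none with fewer than 10 counts summed over the samples. A second table of the authors, with counts scaled by DESeq2 and their fold changes and p-values, was not used here.

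Expected counts were rounded, and R 4.3.3 was used to test them with edgeR 4.0.16 (TMM, filterByExpr by age, quasi-likelihood test of aged against young, Benjamini-Hochberg adjustment over 11878 genes). The design had named raw counts. TMM factors ran from 0.904 to 1.113 and the biological coefficient of variation was 0.239. With 15270103 to 17927483 counts a sample, counting error weighs most on genes of low count, among the 9 genes Adora3, Adora2a and Ada. Transcript lengths came from GENCODE M21, in which 99.5% of 14855 matched genes have the same start as in the count table, and ends are printed as in GENCODE, since the table's stop lies 1 base further in 99.4%. Alternatives were DESeq2 1.42.0, limma-voom (limma 3.58.1), other scalings and filters, the set letter as a block, other thresholds and leaving out each sample. The tests were checked on simulated data. Plots were made with Python 3.11.15 and matplotlib 3.10.9.

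The 9 genes, the pathway lists and the marker lists were chosen with earlier results of these data known, so neither counts over them nor their direction are independent evidence. Named are all 9 genes, each pathway gene that passed the threshold of 0.05 and the tested gene with the highest mean CPM in each pathway list. Marker lists are given by counts, sums and defining markers.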

Additional observations from a re-analysis of the deposited data

How the results depend on the processing

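Over all genes, 2103 were called, and 3646 with limma-voom, 3364 at an adjusted p under 0.1, 1044 with a change over 2-fold also required, and 218 to 2702 when each sample was left out in turn. Of the 9 genes, 4 were called, all higher. The number called was 2 without the filter on low counts, 1 with a change over 2-fold also required, and 0 to 4 when each sample was left out. The number called higher was 2 with library totals in place of TMM, 2 without the filter, 1 with the fold threshold, and 0 to 3 when each sample was left out. With library totals, the log2 fold change of P2rx7 changed sign to -0.07, those of P2ry2 (0.60) and Adora2b (0.47) no longer passed the test, and that of Ada (-1.08) passed it. Without the filter, 15168 genes were tested, and P2ry2 (0.80) and Adora2b (0.65) missed the threshold with adjusted p of 0.0513 and 0.0518. limma-voom added P2ry6 (0.56) and Ada (-0.89). Leaving out each sample gave log2 fold changes of 0.60 to 1.07 for P2ry2, 0.79 to 1.01 for Entpd1, 0.49 to 0.79 for Adora2b, 1.47 to 2.18 for Adora3 and -1.16 to -0.69 for Ada. The cause of these changes was not tested. DESeq2, DESeq2 size factors in edgeR and a minimum of 10 counts in every sample gave the same 4 genes. Residuals of samples with the same set letter correlated at 0.18 (A), -0.02 (B) and 0.11 (C) over 11878 genes. Those of samples with different letters correlated at -0.22 to 0.14. With 3 samples in each age, these values cannot decide whether the letters pair the samples. The replicate block by set letter called 1202 genes higher and 912 lower and 5 of the 9 genes, with Ada at -0.93 (adjusted p = 0.0316), and under it Nt5e, at an adjusted p of 0.05 after rounding, no longer passed. Not every sample correlated best with its own letter. Of the 9 genes, Adora3, with 16 to 78 counts a sample, had the lowest mean CPM over all samples, and its values are limited by depth.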
